A study of Mus musculus with 8 samples.

Results

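The 48 genes described here are DNA replication and mitosis genes in 2 mouse blood progenitor types. Each type had libraries labelled control and libraries labelled knockout (KO) of *Pcgf1*, a subunit of a Polycomb repressive complex 1 (PRC1). The genes were chosen by name, 28 as genes whose products act in S phase and 20 as genes whose products act in mitosis. All 48 were found among the 23284 gene symbols of both deposited tables. Each of the 48 reached 1 CPM (reads scaled to a common library total) in both tables, so that none was lost to the filter on low values. S phase genes and mitotic genes are described separately.

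DNA is copied once per cell cycle. The MCM2-7 helicase is loaded on origins by Cdc6 and Cdt1, is activated with Cdc45 and the GINS complex, and is followed by the primase, the polymerases, the PCNA clamp and the ligase, while ribonucleotide reductase, thymidylate synthase and thymidine kinase supply the nucleotides. Cyclin E and the E2F factors drive the entry into S phase, and cyclin A, cyclin B and Cdk1 with the Polo and Aurora kinases drive mitosis, which ends when the anaphase promoting complex, acting with Cdc20 and Ube2c, has cyclin B destroyed. Cycling progenitors transcribe both sets at high levels, and the S phase set peaks earlier in the cycle than the mitotic set. In a bulk library, fewer cells in a phase and less RNA per cell cannot be told apart.

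Poly(A) RNA was sequenced from 8 libraries, 4 of IdHPCs and 4 of LMPPs, all from bone marrow of mice labelled B6CBAF1/J. IdHPCs are lines derived from Lin- Sca-1+ c-Kit+ progenitors that carry a retroviral human Id3 and were kept on TSt-4 stromal feeder cells with IL-7, SCF and Flt3 ligand. LMPPs are lymphoid-primed multipotent progenitors sorted from marrow, which the study cultured with 4-OHT (the labels repeat the TSt-4 culture for them). Within each type, 2 libraries were labelled *Pcgf1* fl/fl (control) and 2 *Pcgf1*-/- (*Pcgf1*-KO). Per the study, the KO cells carried ERT2-Cre with *Pcgf1* fl/fl and were given 4-OHT, which deletes exons 2 to 7, and the control LMPPs lacked Cre but had 4-OHT. For IdHPCs the supplement describes, for another experiment, controls of the same ERT2-Cre line given ethanol in place of 4-OHT, and the labels do not say what these control IdHPCs received. The study calls the duplicates of both types biologically independent.

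In IdHPCs, reads on the 2nd to 7th of the rows listed for *Pcgf1* numbered 193 and 173 in the controls, against 15 in each KO library. In LMPPs they numbered 84 and 76 for the libraries labelled control 1 and *Pcgf1*-KO 1, and 0 for both the library labelled control 2 and that labelled *Pcgf1*-KO 2. The LMPP labels thus run against the reads in 2 of 4 libraries. The 2 sets are described in LMPPs both by label and by these reads, and no library was relabelled. The 2 libraries without such reads are both numbered 2 and the other 2 are both numbered 1, so that the *Pcgf1* reads and the replicate number cannot be told apart. Distinct rows held between 9618849 and 25302206 reads per library, and the 48 genes held between 162 and 17567 reads each in a library.

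Levels can be compared between genes only per length. As CPM per kilobase of annotated exon, averaged over the 2 control IdHPC libraries, *Pcna*, the sliding clamp, was highest at 92.7, followed by the helicase subunits *Mcm2* at 68.9, *Mcm3* at 68.3 and *Mcm6* at 59.1 and by *Top2a*, the topoisomerase that untangles sister chromatids, at 54.4. *Pcna* has processed pseudogene copies in the mouse genome, so that its own level is uncertain. At the other end stood *Tyms* at 3.56, *Pola1* at 3.74, *E2f2* at 4.01 and *Mcm10* at 4.45. The length joins the exons of all annotated transcripts of a gene, 6089 bases for *Tyms*. It can exceed the length of the RNA present, so that places in this order are uncertain. In LMPPs, over all 4 libraries, *Mcm3* led at 132, followed by *Mcm5* at 112, *Mcm6* at 104 and *Pcna* at 101, and the cyclin E genes *Ccne2* at 4.91 and *Ccne1* at 4.95 were lowest. The helicase thus stood near the top of both orders. The 2 tables were normalized separately, so no difference in level between IdHPCs and LMPPs was tested.

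Promoters of S phase genes are known for E2F sites, and those of mitotic genes for CCAAT boxes with a downstream CHR element. The 250 bases before the start were searched on both strands for TTGGCGC or TTCCCGC or TTCGCGC or TTGCCGC (E2F-type), for TTTGAA or TTCGAA (CHR-type) and for CCAAT. The RefSeq promoter table (GRCm38.p6) had an entry for 38 of the 48 genes. Of 23 S phase genes, 10 (43.5%) held an E2F-type match, 6 (26.1%) a CHR-type match and 14 (60.9%) CCAAT. Of 15 mitotic genes, 3 (20%) held an E2F-type match, 8 (53.3%) a CHR-type match and 14 (93.3%) CCAAT. The same matches were held by 9.01%, 19.6% and 37.5% of all 27025 genes in the table. In *Ccnb1* and *Prim1*, matches of different motifs share bases. A match is only a stretch of letters, and no test was made. Shown are the S phase and mitotic genes with the largest changes in IdHPCs that have an entry (*Tk1* and *Tyms*, *Kif11* and *Cenpf*) and *Rrm2*, which passed the test in LMPPs. Letters in capitals are matches, all other letters are in lower case, and each line reads 5′ to 3′ and ends at the base before the start.
*Tk1* (chr11:117826015-117826264, minus strand): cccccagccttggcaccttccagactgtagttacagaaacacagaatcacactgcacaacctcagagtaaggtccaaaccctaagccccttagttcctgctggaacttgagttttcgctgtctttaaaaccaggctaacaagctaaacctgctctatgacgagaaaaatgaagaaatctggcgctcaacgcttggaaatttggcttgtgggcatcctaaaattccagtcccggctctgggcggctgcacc
*Tyms* (chr5:30073626-30073875, minus strand): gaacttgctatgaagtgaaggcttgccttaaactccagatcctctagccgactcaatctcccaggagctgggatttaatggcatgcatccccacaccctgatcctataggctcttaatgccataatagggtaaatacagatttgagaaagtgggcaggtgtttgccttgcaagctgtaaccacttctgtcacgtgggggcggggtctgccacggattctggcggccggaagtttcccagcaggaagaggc
*Rrm2* (chr12:24708004-24708253, plus strand): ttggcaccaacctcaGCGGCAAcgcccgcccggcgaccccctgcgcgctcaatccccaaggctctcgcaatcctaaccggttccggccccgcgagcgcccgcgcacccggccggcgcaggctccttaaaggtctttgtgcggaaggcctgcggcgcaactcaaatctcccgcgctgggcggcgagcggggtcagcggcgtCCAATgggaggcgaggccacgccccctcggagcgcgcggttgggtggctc
*Kif11* (chr19:37376132-37376381, plus strand): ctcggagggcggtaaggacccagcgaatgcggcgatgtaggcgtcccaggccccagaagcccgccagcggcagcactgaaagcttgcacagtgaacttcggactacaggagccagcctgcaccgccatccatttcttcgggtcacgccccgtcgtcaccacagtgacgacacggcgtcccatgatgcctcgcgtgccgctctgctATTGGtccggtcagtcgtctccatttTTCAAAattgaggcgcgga
*Cenpf* (chr1:189688087-189688336, minus strand): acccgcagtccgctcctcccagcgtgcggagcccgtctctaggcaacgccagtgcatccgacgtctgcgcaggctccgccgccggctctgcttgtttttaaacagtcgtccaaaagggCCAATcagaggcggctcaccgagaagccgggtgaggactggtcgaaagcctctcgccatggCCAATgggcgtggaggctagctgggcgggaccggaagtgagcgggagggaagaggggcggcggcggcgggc
The *Kif11* stretch holds 1 CCAAT, read on the other strand, and 1 CHR-type match close to the start, and the *Cenpf* stretch holds 2 CCAAT. *Rrm2* holds 1 E2F-type match and 1 CCAAT, and *Tk1* and *Tyms* hold none of these letters in this window. *Gins1* and *Ccne2*, which also stand out below, have no entry.

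In IdHPCs, the S phase genes had no shared direction between KO and control, and the mitotic genes stood slightly lower in KO on median, but no gene of either set passed the test. Between KO and control libraries, 17 of 28 S phase genes were higher and 11 lower, with a median log2 fold change of 0.046 beside 0.0056 over all 12273 genes tested. Of the mitotic genes, 6 of 20 were higher and 14 lower, with a median of -0.12. None of the 48 was called by limma at an adjusted p of 0.05, where 33 genes of the whole table (0.269%) were called higher and 32 (0.261%) lower, a split that became 119 and 62 when CPM was rescaled by the median ratio over genes. The lowest adjusted p by limma was 0.365 in the S phase set and 0.323 in the mitotic set. At an unadjusted p under 0.05, 1 of the 48 passed, *Kif11*, which was lower, where 9.17% of all genes passed as higher and 5.33% as lower. None of the 48 was called by edgeR's exactTest, by its quasi-likelihood test or by DESeq2 either. The 95% intervals reached between 0.45 and 0.84 on each side of the log2 fold change, so that changes smaller than that were not resolved.

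**Figure D1:**
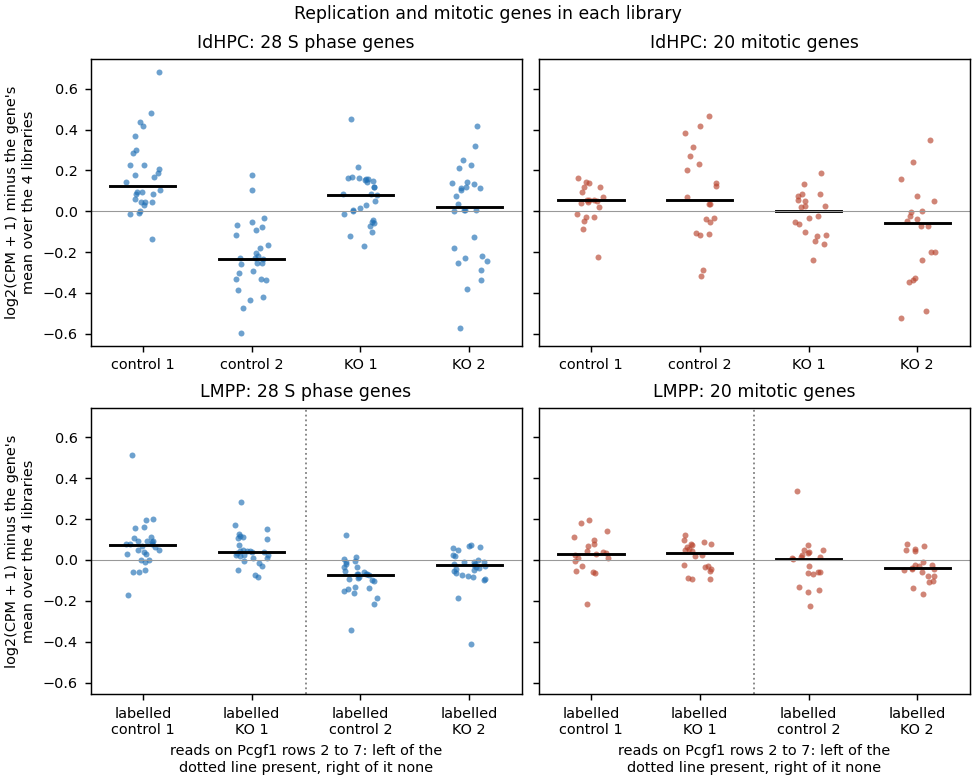
Each point is 1 gene in 1 library, as log2(CPM + 1) minus that gene's mean over the 4 libraries of the table (vertical axis, log2 units), for the 28 S phase genes (left) and 20 mitotic genes (right) in IdHPCs (top) and LMPPs (bottom); bars are medians. Control 2 is lowest for the S phase genes of IdHPCs, where 27 of 28 lie below control 1, and in LMPPs the libraries right of the dotted line, which have no reads on *Pcgf1* rows 2 to 7, lie below the others for most S phase genes.

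The 2 control IdHPC libraries differed from each other more than the genotypes did in the S phase set. Control 1 was above control 2 for 27 of 28 S phase genes, with a median difference of 0.37 on the log2 scale against -0.019 over all genes tested. Control 2 was the lowest of the 4 libraries for 21 of the 28 genes and control 1 the highest for 17. For 25 of the 28, the difference between the controls was larger than the fold change between the genotypes. A difference between 2 single libraries varies more than one between 2 means, and the share over all genes was not counted. Summed over the 28 genes, the level was 2769 and 2136 CPM in the controls, against 2576 and 2464 CPM in the KO libraries, so that both KO libraries lay between the 2 controls. Accordingly the median of the set was -0.11 and -0.14 for KO 1 and KO 2 against control 1, and 0.27 and 0.28 against control 2. The median without control 1 was 0.27 and without control 2 it was -0.084, a change of sign that rests on which control is kept. Markers of the B lineage differed between the same 2 libraries. The list of 10 summed to 160 CPM in control 1 and 314 CPM in control 2, against 243 and 329 CPM in the KO libraries. *Igll1* and *Vpreb1*, of the surrogate light chain, stood at 3.74 and 5.63 CPM in control 1 and at 30.9 and 28.4 CPM in control 2. Their part in the S phase values was not tested.

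The mitotic genes did not share this split. The median difference between control 1 and control 2 was -0.0037, with 10 genes higher in each, and the difference between the controls exceeded the fold change for 8 of 20 genes. Their summed level was 1940 and 2047 CPM in the controls, against 1797 and 1719 CPM in the KO libraries, and here the groups did not overlap. All 4 pairings of a KO with a control library gave a median below 0, from -0.18 to -0.032.

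Among the helicase genes of IdHPCs, *Mcm2* stood at 284 and 181 CPM in the controls, against 235 and 168 CPM in the KO libraries, a log2 fold change of -0.19 ± 0.27 (SE, n = 2 per group; adjusted p = 0.781, limma). *Mcm7* stood at 240 and 190 CPM in the controls, against 254 and 285 CPM in the KO libraries, a log2 fold change of 0.33 ± 0.22. The groups overlapped for *Mcm2* and not for *Mcm7*. Over the 9 genes of the MCM helicase and its loading the median log2 fold change was 0.010, and *Mcm7* was the 1 whose groups did not overlap. *Mcm10*, *Cdc6* and *Cdt1*, which load or activate the helicase, had log2 fold changes of 0.036, -0.098 and 0.069, each smaller than its SE.

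The partners that turn the loaded helicase into the active CMG complex were all higher on average. *Gins1*, a subunit of GINS, had the largest fold change of the S phase set. It stood at 12.9 and 10.3 CPM in the controls and at 19.9 and 15.5 CPM in the KO libraries, both above both controls. Its log2 fold change was 0.57 ± 0.27, with an adjusted p of 0.365 by limma. *Gins2* stood at 25.6 and 19.7 CPM in the controls and at 27.9 and 27.8 CPM in the KO libraries (log2 fold change 0.30 ± 0.25), again without overlap. *Cdc45* stood at 46.1 and 33.9 CPM against 41.9 and 46.0 CPM, with overlap. In all, 2 of the 3 partners lay fully higher, beside 25.6% of all genes tested.

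Of the nucleotide supply, the 2 thymidine genes were higher on average and the 2 ribonucleotide reductase genes were not. *Tk1*, thymidine kinase, stood at 34.6 and 25.9 CPM in the controls and at 38.0 and 43.9 CPM in the KO libraries (log2 fold change 0.44 ± 0.24). *Tyms*, thymidylate synthase, stood at 25.7 and 17.6 CPM against 25.1 and 33.5 CPM (0.43 ± 0.27), and here KO 1 lay just below control 1. *Rrm1* and *Rrm2*, the large and small subunits of ribonucleotide reductase, had log2 fold changes of -0.048 and -0.067, both well within their SEs.

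Polymerase, clamp and ligase genes had log2 fold changes between -0.39 and 0.26, with 6 of 8 above 0. *Pole*, the catalytic subunit of the leading strand polymerase, stood at 59.3 and 52.3 CPM in the controls and at 43.0 and 41.5 CPM in the KO libraries (log2 fold change -0.39 ± 0.22, adjusted p = 0.451 by limma), without overlap. *Rfc3*, a subunit of the clamp loader, was the 1 gene of this group with both KO libraries above both controls, at 21.2 and 16.4 CPM against 22.8 and 22.3 CPM. *Rfc4*, of the same loader, and *Lig1*, the ligase, overlapped, with log2 fold changes of 0.057 and 0.15. *Pcna* itself stood at 249 and 196 CPM against 248 and 246 CPM, with overlap. Of the genes that drive entry into S phase, *Ccne2* stood at 30.3 and 20.3 CPM in the controls, against 24.2 and 14.1 CPM in the KO libraries (-0.40 ± 0.31), and *E2f2* at 22.7 and 16.5 CPM against 15.8 and 15.2 CPM (-0.30 ± 0.26). The groups overlapped for *Ccne2* and not for *E2f2*. *E2f1*, a further activator E2F, had one of 0.032.

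In all, 5 of 28 S phase genes (*Mcm7*, *Gins1*, *Gins2*, *Tk1* and *Rfc3*) had both KO libraries above both controls and 2 (*Pole* and *E2f2*) had both below. Of all genes tested, 25.6% lay fully above and 21.3% fully below. Of the 20 mitotic genes, 4 lay fully above and 9 fully below.

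**Figure D2:**
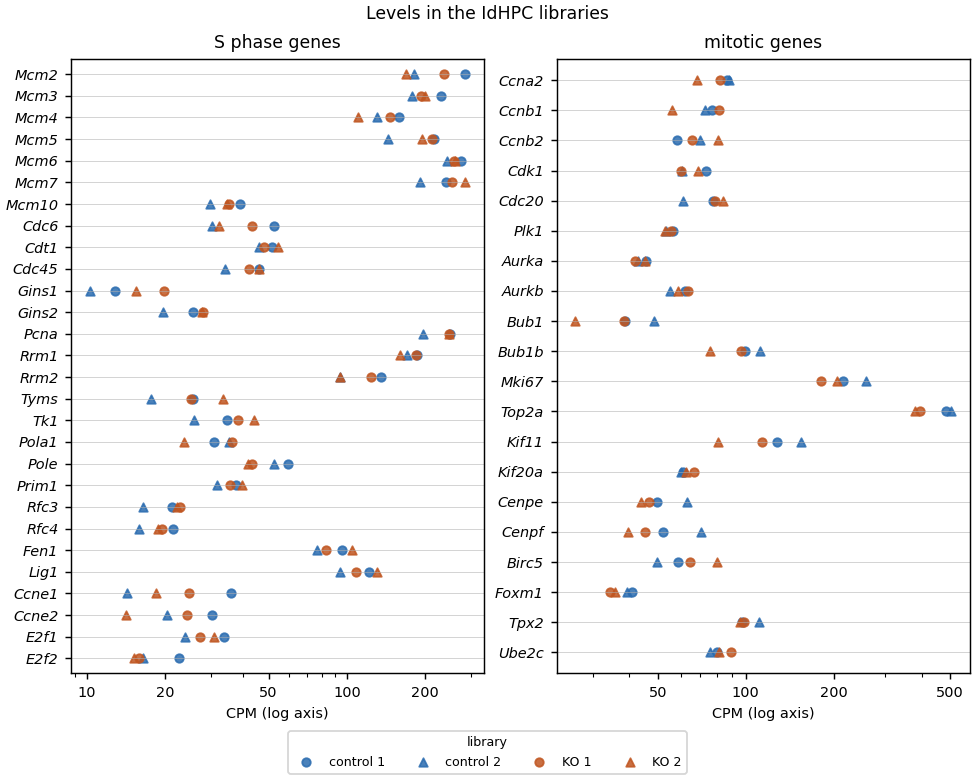
Level of each gene in the 4 IdHPC libraries, in CPM on a log axis (horizontal), with S phase genes on the left and mitotic genes on the right; blue marks control and orange *Pcgf1*-KO, circles replicate 1 and triangles replicate 2. The blue circle lies right of the blue triangle for 27 of 28 S phase genes, and the blue symbols lie right of both orange symbols for 9 of 20 mitotic genes, *Kif11*, *Cenpf* and *Top2a* among them.

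Of the 9 mitotic genes that lay fully lower, 3 are of the spindle and kinetochore, 3 of chromosome structure and regulation and 2 of the checkpoint, and 1 is a cyclin. *Kif11*, the motor that pushes spindle poles apart, stood at 128 and 155 CPM in the controls and at 114 and 80.4 CPM in the KO libraries. Its log2 fold change of -0.56 ± 0.24 was the largest of the set, with an unadjusted p of 0.0411 and an adjusted p of 0.323 by limma, and both KO libraries lay below both controls. *Cenpf*, a kinetochore protein, stood at 52.2 and 70.5 CPM in the controls and at 45.3 and 39.6 CPM in the KO libraries (-0.51 ± 0.24). *Cenpe*, a kinetochore motor, stood at 49.7 and 62.8 CPM against 46.7 and 43.7 CPM. These 3 genes had no overlap, while *Tpx2*, a spindle assembly factor, overlapped at 97.0 and 111 CPM against 98.8 and 95.5 CPM. *Kif20a*, the remaining spindle gene, was higher.

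*Top2a* stood at 483 and 503 CPM in the controls and at 396 and 380 CPM in the KO libraries (log2 fold change -0.35 ± 0.20, adjusted p = 0.464 by limma). *Mki67*, the Ki-67 proliferation antigen that coats mitotic chromosomes, stood at 216 and 257 CPM against 181 and 206 CPM (-0.29 ± 0.21). *Foxm1*, a transcription factor of the mitotic genes, stood at 40.8 and 39.3 CPM against 34.4 and 35.6 CPM. All 3 chromosome structure and regulator genes were thus lower without overlap, beside 21.3% of all genes tested. Of the checkpoint genes, *Bub1* stood at 38.5 and 48.5 CPM against 38.3 and 26.1 CPM (-0.44 ± 0.26) and *Bub1b* at 99.7 and 112 CPM against 96.7 and 75.4 CPM (-0.30 ± 0.22), so that control 1 and KO 1 nearly met in both.

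The mitotic cyclins, Cdk1 and the Polo and Aurora kinases had log2 fold changes between -0.22 and 0.19. *Plk1*, *Aurka* and *Aurkb* had log2 fold changes of -0.013, -0.015 and 0.061, each with an SE of 0.22. That of *Cdk1* was -0.050 and that of *Ccnb1* -0.15, with overlap, and *Ccnb2*, a second cyclin B, stood at 58.0 and 69.6 CPM in the controls, against 65.3 and 80.4 CPM in the KO libraries (0.19 ± 0.23), with overlap too. *Ccna2*, cyclin A, which acts in S phase as well as in mitosis, stood at 86.0 and 87.8 CPM against 81.8 and 68.2 CPM, without overlap.

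Of the 4 mitotic genes with both KO libraries above both controls, 2 act with the anaphase promoting complex, 1 acts with Aurora B and 1 is a spindle motor. *Birc5*, survivin, which works with Aurora B, stood at 58.6 and 49.8 CPM in the controls and at 64.6 and 79.6 CPM in the KO libraries (log2 fold change 0.40 ± 0.23, adjusted p = 0.449 by limma). *Cdc20*, the activator of the anaphase promoting complex, stood at 77.5 and 61.0 CPM against 78.7 and 83.3 CPM, and *Ube2c*, its ubiquitin-conjugating enzyme, at 79.6 and 75.3 CPM against 88.9 and 81.0 CPM. *Kif20a*, a motor of the midzone spindle, stood at 61.1 and 60.2 CPM against 66.3 and 62.3 CPM. Some of these gaps were narrower than the spread within a group, as for *Cdc20*, where control 1 and KO 1 nearly met.

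In IdHPCs, the longer mitotic genes had the lower fold changes. The 9 genes that were fully lower had between 3510 and 11368 bases of annotated exon (median 5498), and the 4 that were fully higher had between 1868 and 3893 (median 3007). Across the 20 mitotic genes, Spearman's rank correlation between exon length and log2 fold change was -0.82, and across the 28 S phase genes it was -0.15. The lengths join the exons of all annotated transcripts, with *Tyms* at 6089 and *Tk1* at 5198 bases. They can exceed the length of the RNA present, and whether the 2 sets differ in this correlation was not tested. These genes share the same 4 libraries and are not independent replicates. The same correlation over the mitotic genes was between -0.81 and -0.60 in the 4 pairings of a KO with a control library, and it was -0.65 for control 1 minus control 2, where no genotype differs. In LMPPs it was -0.58 by label and 0.49, of the opposite sign, by *Pcgf1* reads. The share of reads on the row at the 3' end of each gene also differed between libraries. In KO 2 it had a median of 34.0% over 7941 well covered genes, against 23.1% to 24.5% in the other 3 libraries, and for the mitotic genes together it was 19.3% against 12.0% to 12.3%. Without that row, the median of the mitotic set was -0.20, beside -0.071 over all genes, and that of the S phase set was -0.0035. CPM without that row was still scaled to the total of all rows, so that each median is to be read beside that of all genes. The part of exon length and of the 3' end in these values was otherwise not tested.

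Stromal marker genes, which feeder cells of this kind express, were higher in the KO IdHPC libraries. All 18 of the 20 stromal markers that passed the filter were higher in the KO libraries, 16 of them without overlap and 2 called, with a median log2 fold change of 0.97, where 25.6% of all genes lay fully higher and 0.269% were called higher. Their summed level was 3991 and 3392 CPM in the controls, against 8272 and 6449 CPM in the KO libraries, with *Lum* and *Dcn* at 0 in all 4. Feeder cells that divide use the same replication and mitosis genes, and neither the source of the stromal RNA nor its part in the values above was tested. In LMPPs the stromal markers summed to between 43.5 and 67.2 CPM, most of it *Pdgfrb*, and *Col3a1*, *Col6a1*, *Postn*, *Lum* and *Dcn* were at 0 in all 4 libraries. In IdHPCs, 2 of 5 progenitor markers lay fully higher in the KO libraries and 1 fully lower, beside 25.6% and 21.3% of all genes, with none called by limma. *Cd34* stood at 108 and 105 CPM in the controls, against 247 and 177 CPM in the KO libraries, *Ly6a*, which encodes Sca-1, at 44.3 and 34.4 CPM against 76.7 and 67.7 CPM, and *Ptprc*, which encodes CD45, at 258 and 327 CPM against 218 and 159 CPM. *Flt3* and *Kit* overlapped. Of 9 B lineage markers tested, 4 were higher and 5 lower, with none called and 2, *Pax5* and *Blnk*, fully lower, beside 21.3% of all genes. In LMPPs, *Flt3* lay between 366 and 440 CPM and *Cd34* between 721 and 800 CPM, and the B lineage markers summed to between 17.0 and 27.9 CPM.

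Compared by label, no gene of either set was called in LMPPs, and the medians of both sets lay near 0. Each label holds 1 library with and 1 without *Pcgf1* reads. A difference tied to these reads thus largely cancels between the labels and adds to the spread within each. The lack of calls by label therefore cannot decide whether these genes change with loss of *Pcgf1*. The median log2 fold change of libraries labelled *Pcgf1*-KO over libraries labelled control was 0.0018 over the S phase genes and -0.014 over the mitotic genes, beside -0.00075 over all 12153 genes tested. Leaving out the library labelled control 1 gave an S phase median of 0.074, and leaving out control 2 gave -0.059. Leaving out the library labelled *Pcgf1*-KO 1 gave -0.017, and leaving out *Pcgf1*-KO 2 gave 0.035. The sign of this median thus rests on which library is left out. None of the 48 genes was called by limma, and none passed at an unadjusted p under 0.05. Of all genes tested, 0 were called higher (0%) and 0 lower (0%) by limma, 2 passed at an unadjusted p under 0.05, and edgeR's 2 tests and DESeq2 called 0 genes too. The largest differences were those of *Gins1*, at 32.4 and 23.7 CPM in the libraries labelled control, against 37.1 and 29.5 CPM for the label *Pcgf1*-KO (0.25 ± 0.21), and of *Ccne2*, at 24.2 and 14.2 CPM against 18.1 and 12.3 CPM (-0.30 ± 0.31). In both, the 2 libraries of a label lay further apart than the labels did. Only *Cdt1*, *Cdc45* and *Cdc20* lay fully higher and *Top2a* and *Kif11* fully lower by label, 3 and 2 of 48, beside 5.92% and 6.3% of all genes, with log2 fold changes between -0.077 and 0.093. The 95% intervals reached between 0.26 and 0.75 on each side.

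Compared by the *Pcgf1* reads, most S phase genes were lower in the LMPP libraries without reads on rows 2 to 7 than in those with them, by small amounts. Of 28 S phase genes, 23 were lower and 5 higher, with a median log2 fold change of -0.11 beside -0.016 over all genes tested. Both libraries without reads lay below both others for 17 of the 28, where 29.9% of all genes lay fully below and 26.7% fully above, and no S phase gene lay fully above. The 4 pairings of a library without with a library with reads gave medians from -0.16 to -0.073. In this comparison limma called 860 of 12153 genes lower (7.08%) and 1229 higher (10.1%). Of the 28 S phase genes it called 2 lower, *Ccne2* and *Rrm2*, a share close to the background, and none higher, while 6 passed as lower at an unadjusted p under 0.05, where 13.6% of all genes did.

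**Figure D3:**
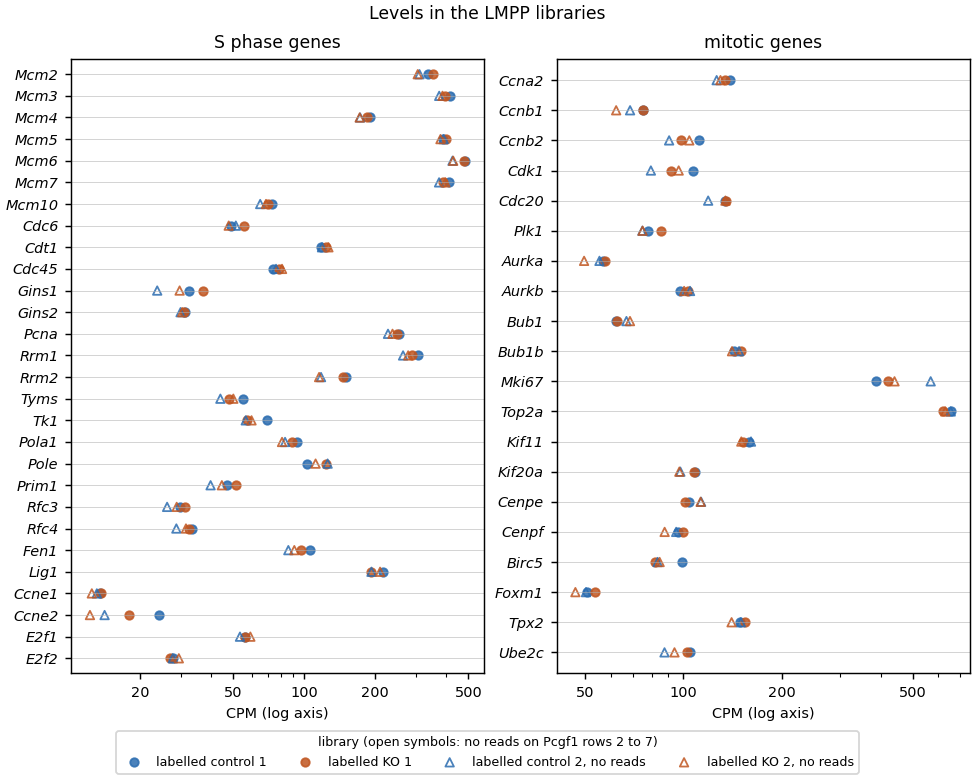
Level of each gene in the 4 LMPP libraries, in CPM on a log axis (horizontal), with S phase genes on the left and mitotic genes on the right; color gives the label (blue control, orange *Pcgf1*-KO), and open triangles are the libraries without reads on *Pcgf1* rows 2 to 7. Both open triangles lie left of both filled circles for 17 of 28 S phase genes, *Ccne2*, *Rrm2* and *Gins1* among them, and right of them for *Mki67*, *Bub1* and *Cenpe*.

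*Ccne2*, a cyclin E gene, stood at 24.2 CPM (library labelled control 1) and 18.1 CPM (library labelled *Pcgf1*-KO 1) where *Pcgf1* reads are present, and at 14.2 CPM (library labelled control 2) and 12.3 CPM (library labelled *Pcgf1*-KO 2) where they are not. It fell by 0.63 ± 0.15 on the log2 scale (adjusted p = 0.0189 by limma). *Rrm2*, the small subunit of ribonucleotide reductase, stood at 151 and 147 CPM in the libraries with reads and at 118 and 116 CPM in those without. It fell by 0.35 ± 0.076 (adjusted p = 0.0117 by limma), and the 2 libraries of each kind lay close together. By label its log2 fold change was -0.035 ± 0.18. Both calls were made by edgeR's 2 tests and by DESeq2 too. By limma both were lost without the library labelled *Pcgf1*-KO 2 (adjusted p = 0.0956 for *Ccne2* and 0.0614 for *Rrm2*), without the library labelled control 1 (0.0846 and 0.0872) and without the mean-variance trend (0.0535 and 0.0627). That of *Rrm2* was also lost without the row at the 3' end (0.0502), at a log2 fold change of -0.32. Without the libraries labelled *Pcgf1*-KO 2 and control 1 in turn, the log2 fold change of *Rrm2* was -0.33 and -0.32. That of *Ccne2* was -0.53 and -0.43. A lone library is assumed in these fits to vary like the others.

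*Gins1* stood at 32.4 and 37.1 CPM in the libraries with reads and at 23.7 and 29.5 CPM in those without, a log2 fold change of -0.38 ± 0.13 with an adjusted p of 0.0696 by limma. EdgeR's exactTest called it (adjusted p = 0.0407), and limma called it without the library labelled *Pcgf1*-KO 2 (0.0323) or without the library labelled control 1 (0.0203). Of the other helicase genes, *Mcm2*, *Mcm3*, *Mcm4*, *Mcm6* and *Mcm10* lay fully lower, with log2 fold changes between -0.17 and -0.092. *Mcm6*, for example, stood at 486 and 479 CPM in the libraries with reads and at 428 and 431 CPM in those without. *Mcm5* and *Mcm7*, of the same helicase, overlapped. Of the polymerase, clamp and ligase genes, 6 of 8 lay fully lower, beside 29.9% of all genes tested. Among them were *Prim1*, the primase, at 47.2 and 51.5 CPM against 40.0 and 44.7 CPM, and *Fen1*, the flap nuclease, at 106 and 96.8 CPM against 85.7 and 90.8 CPM. By label *Mcm6*, *Prim1* and *Fen1* overlapped, at -0.0050, 0.14 and -0.022. *Cdt1*, *Cdc45*, *Pole*, *E2f1* and *E2f2* were the 5 genes with a fold change above 0, the highest of them 0.072.

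The mitotic genes were more divided. By the *Pcgf1* reads, 14 of 20 were lower and 6 higher in LMPPs, with a median of -0.093, which lay between -0.067 and -0.046 with 1 library left out and was smallest without the library labelled *Pcgf1*-KO 2. The 40 other mitotic genes of the list described below did not share this direction, with 18 lower and 22 higher and a median of 0.0042. Of the 20 mitotic genes, 8 lay fully lower and 3 fully higher, limma called none, and 3 passed at an unadjusted p under 0.05, *Ccnb1* and *Ube2c* lower and *Mki67* higher. Of all genes, 29.9% lay fully lower and 26.7% fully higher, and 13.6% and 15.8% passed as lower and higher at that p. *Mki67* stood at 387 and 421 CPM in the libraries with reads and at 568 (library labelled control 2) and 441 CPM in those without, a log2 fold change of 0.31 ± 0.11 (adjusted p = 0.0997 by limma). It was called by edgeR's exactTest (0.0417) and, by limma, without the library labelled *Pcgf1*-KO 2 (0.0208), which left the library labelled control 2 alone, the highest of the 4. *Ube2c* stood at 105 and 102 CPM against 87.5 and 93.9 CPM, and *Ccnb1*, cyclin B, at 75.1 and 75.2 CPM against 68.7 and 62.3 CPM. By label *Mki67*, *Ube2c* and *Ccnb1* overlapped, at -0.12, 0.034 and -0.069. *Top2a* and *Kif11*, which lay fully lower in KO IdHPCs, had log2 fold changes here of 0.0094 and 0.0035.

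**Figure D4:**
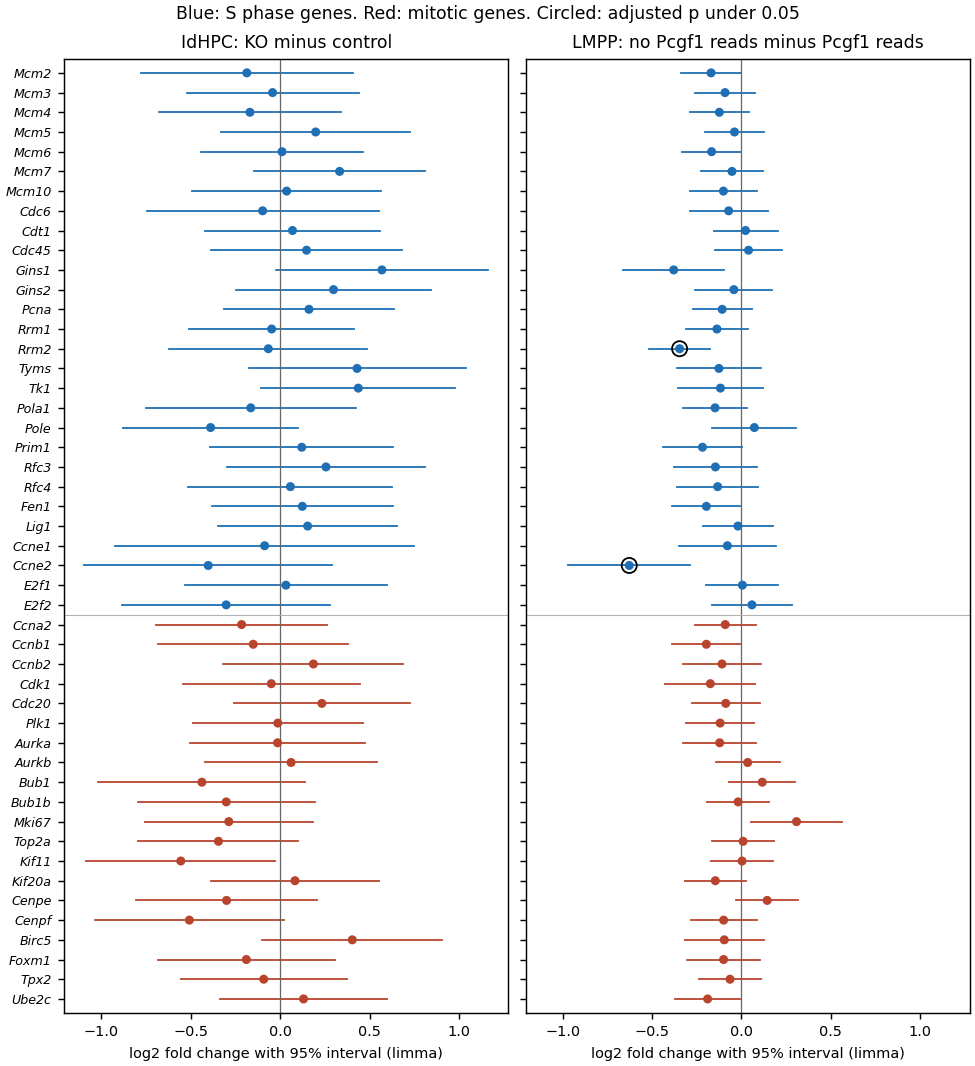
Log2 fold change of each gene with its 95% interval from limma (horizontal), in IdHPCs (left, KO minus control) and in LMPPs by *Pcgf1* reads (right, libraries without minus libraries with reads); blue marks S phase and red mitotic genes, and black circles mark an adjusted p under 0.05. In IdHPCs the interval of 1 gene, *Kif11*, leaves out 0 and none is circled, and in LMPPs *Rrm2* and *Ccne2* are circled.

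Markers of other cell types moved with this split of the LMPPs as well. Of 8 mature myeloid markers tested, 7 were lower in the libraries without *Pcgf1* reads and 4 were called, where 7.08% of all genes were called lower and 10.1% higher, and the list summed to 2644 and 2608 CPM in the libraries with reads and 2260 and 2327 CPM in those without. *Csf1r*, for example, stood at 114 and 118 CPM against 52.9 and 49.2 CPM. Of 5 progenitor markers, 2 were higher and 3 lower, with 1 called in each direction. *Kit*, the stem cell factor receptor, stood at 228 and 258 CPM against 384 and 352 CPM and rose by 0.60 ± 0.088 (adjusted p = 0.00132 by limma). *Ly6a* stood at 14.7 and 14.7 CPM against 4.14 and 2.80 CPM and fell by 1.83 ± 0.17 (adjusted p = 1.13e-04 by limma). Of 7 erythroid markers 2 were tested, both higher and 1 called, and *Slc4a1* was at 0 in all 4 libraries. Of 3 B lineage markers tested all were lower, and *Blnk*, a B cell adaptor, was called, at 7.96 and 6.73 CPM against 1.78 and 2.20 CPM (it fell by 1.48 ± 0.17, adjusted p = 3.75e-04 by limma). Of 6 stromal markers tested, 3 were higher and 3 lower, and *Pdgfrb* was called, at 35.1 and 35.8 CPM against 56.8 and 48.8 CPM (it rose by 0.56 ± 0.10, adjusted p = 0.00433 by limma). By label no marker was called, but each label mixes libraries with and without *Pcgf1* reads. The median log2 fold change by label was -0.013 over the myeloid, 0.025 over the progenitor and 0.44 over the erythroid markers. It was -0.18 over the B lineage and -0.0033 over the stromal markers. The part of such a difference in cell makeup in the S phase values was not tested.

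The other genes of these pathways, from lists that hold none of the 48, gave few calls. In IdHPCs, the median log2 fold change was -0.073 over 39 other S phase genes and -0.15 over 40 other mitotic genes, and limma called none in either list, with 0 and 6 passing at an unadjusted p under 0.05. Of the other mitotic genes 17 of 40 lay fully lower and 7 fully higher, beside 21.3% and 25.6% of all genes, and of the 6 that passed at the unadjusted p 5 were lower and 1 higher, beside 5.33% and 9.17%. The lowest were *Ect2*, which acts in cytokinesis, at -0.68 ± 0.29, *Aspm*, a spindle pole protein, at -0.64 ± 0.27, and *Espl1*, separase, at -0.56 ± 0.24. The highest was *Pttg1*, securin, the inhibitor of separase, at 0.74 ± 0.30, with 4.62 and 4.44 CPM in the controls, against 6.67 and 10.2 CPM in the KO libraries, followed by *Cdca8*, a partner of Aurora B, at 0.30 and *Cdc25c*, a phosphatase that activates Cdk1, at 0.28. Of the other S phase genes, *Usp1*, *Msh6* and *Orc3* were lowest, at between -0.41 and -0.38, and *Chaf1b*, *Rpa2* and *Dut* highest, at between 0.30 and 0.43.

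Of 17 G1 and E2F regulators in IdHPCs, 1 was called, as higher, where 0.269% of all genes were. *Ccnd1*, cyclin D1, stood at 14.2 and 10.5 CPM in the controls and at 46.9 and 36.3 CPM in the KO libraries, a log2 fold change of 1.67 ± 0.26 (adjusted p = 0.0294 by limma). The stromal markers above were higher in the same libraries, and fibroblast-like cells are known to express this cyclin. Their part in its change was not tested.

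In LMPPs by label, none of these 3 lists held a call by limma, but each label mixes libraries with and without *Pcgf1* reads. Of the other S phase genes, *Rpa3*, *Orc1* and *Orc4* were lowest (-0.23 to -0.18) and *Asf1b* (0.085) and *Orc3* (0.062) among the highest. Of the other mitotic genes, *Ndc80*, *Hmmr* and *Cdca5* were lowest (-0.13 to -0.11) and *Nusap1*, *Kif14* and *Nuf2* highest (0.086 to 0.12). Of the regulators, *E2f5*, *E2f3* and *E2f7* were lowest (-0.42 to -0.077) and *Mycn*, *Lin9* and *Mybl2* highest (0.095 to 0.16). All of these lay within 2 SEs of 0.

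The split by *Pcgf1* reads gave more calls, with medians of -0.067 over the other S phase genes, 0.0042 over the other mitotic genes and -0.12 over the regulators. Among the regulators, *Ccnd1* stood at 176 and 178 CPM in the libraries with reads and at 129 and 123 CPM in those without, and it fell by 0.49 ± 0.076 (adjusted p = 0.00187 by limma). *Ccnd2*, cyclin D2, stood at 493 and 509 CPM against 388 and 372 CPM and fell by 0.40 ± 0.075 (adjusted p = 0.00524). *Mycn*, a Myc family factor, rose from 17.0 and 17.9 CPM to 28.9 and 34.4 CPM, by 0.82 ± 0.12 (adjusted p = 0.00121). These 3 of 17 stand beside backgrounds of 7.08% lower and 10.1% higher. Of the other mitotic genes, *Kif23*, a midzone spindle motor, was the 1 called, lower by reads at 169 and 159 CPM against 128 and 142 CPM (-0.28 ± 0.084, adjusted p = 0.0452 by limma), and of the other S phase genes none was called, with 5 passing at an unadjusted p under 0.05, all lower, beside 13.6% of all genes. Among the lowest of the list were *Orc1*, of the origin recognition complex, at -0.32 and *Tipin*, of the fork protection complex, at -0.28, and the highest were *Exo1*, *Prim2* and *Gins3*, at between 0.11 and 0.17.

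**Figure D5:**
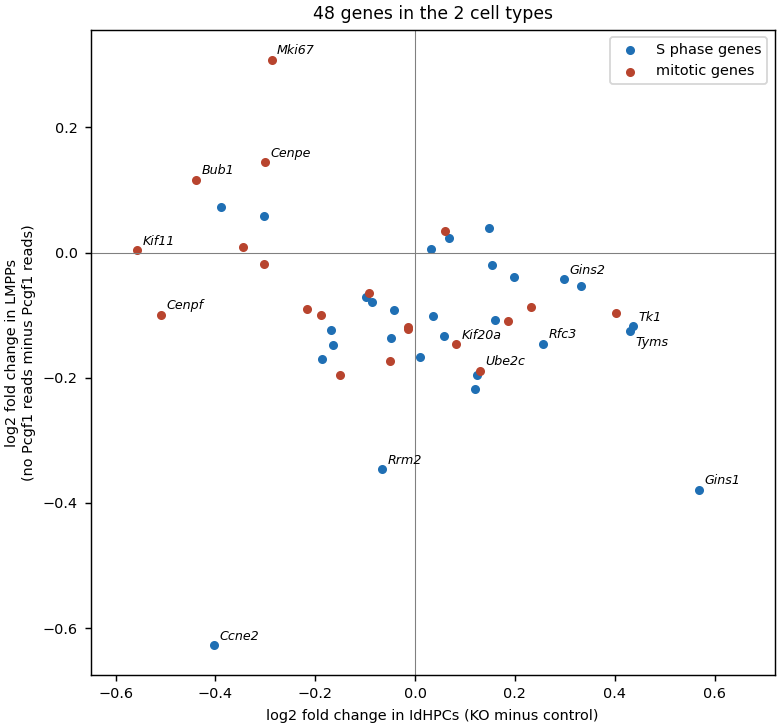
Each point is 1 of the 48 genes, with its log2 fold change in IdHPCs (KO minus control, horizontal) and in LMPPs by *Pcgf1* reads (libraries without minus with reads, vertical). *Gins1* stands at 0.57 and -0.38, *Mki67* at -0.29 and 0.31, and *Ccne2* at -0.40 and -0.63, and most points of both sets lie below the horizontal line at 0.

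The 2 comparisons share no library, and their values can be set side by side. Of the S phase genes, *Ccne2* was lower in both, at -0.40 ± 0.31 in IdHPCs and -0.63 ± 0.15 in LMPPs by reads, and by label it was -0.30 ± 0.31. *Rrm2* was -0.067 ± 0.25 in IdHPCs against -0.35 ± 0.076 in LMPPs by reads. *Tk1* was 0.44 ± 0.24 in IdHPCs against -0.12 ± 0.11. For 8 of the 48 genes the groups did not overlap in either comparison and lay on opposite sides, beside 11.4% of the 11248 genes tested in both tables, and by LMPP label none of the 48 did so, beside 2.34%. Whether the fold change of any gene differed between the types was not tested.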

How the data were processed

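Library labels gave the groups, and LMPPs were also compared by reads on *Pcgf1* rows 2 to 7, which run against the labels in 2 of 4 libraries. The authors made the deposited CPM values from poly(A) RNA. The methods name HISAT2, Rsubread and edgeR on mm9, while the submitters' processing notes name TopHat2 (2.0.13), edgeR and mm9. Both tables list exons (284716 rows) and not genes. Rows equal to the row before in all 8 libraries were counted once (26.6% of rows with reads), and rows were summed per symbol. All values (100%) were whole multiples of 1 read within 0.001, so reads were recovered. The strand setting was not given in the sources used here.

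Each table was tested alone with limma 3.58.1 (R 4.3.3) on log2(CPM + 1), using the trend of variance on level. Genes entered when 1 or more libraries reached a CPM of 1, with Benjamini-Hochberg adjustment over all of them (threshold 0.05). Fold changes on this scale understate changes of low genes. Errors are SEs of limma and n is 2 per group. Alternatives were edgeR 4.0.16 (exactTest as in the study, and its quasi-likelihood test) and DESeq2 1.42.0 on recovered reads, a pseudocount of 0.1, other filters, median ratio scaling, no trend, all rows, each library left out, the replicate block and, chosen after seeing the data, the row at the 3' end left out. A fold change of a single gene was taken as reversed where it changed sign and either it exceeded its SE before or passed the test after. The fits were tested on simulated data.

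The 48 genes, the other gene lists and the markers were chosen with earlier results of these data known. All 48 genes are named. Of the other S phase, other mitotic and regulator lists, the genes called are named, or the 3 largest rises and falls where none was called, apart from 2 genes not reported here. Promoters are those of the 2 S phase and 2 mitotic genes with the largest change in IdHPCs that have an entry, and of genes called in LMPPs. Coordinates of genes on NCBIM37 served for exon lengths and 3' ends. Depth, on distinct rows, was between 9618849 and 25302206 reads per library, and with 2 libraries a group precision rests on the spread between them more than on counting.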

Additional observations from a re-analysis of the deposited data

Results flagged for a closer look

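No group had the 4 samples needed to look for a single library far from the others. For 8 of the 48 genes, both libraries of the first group lay on one side of both others in IdHPCs (KO against control) and on the opposite side in LMPPs split by *Pcgf1* reads. Of 11248 genes tested in both tables, 11.4% did so. The difference between the cell types was not tested, and none of the 8 was called by limma in either comparison. Values are given as log2 fold changes in IdHPCs and then in LMPPs. *Gins1*, *Gins2* and *Rfc3* of the S phase set were higher and then lower, at 0.57 and -0.38, 0.30 and -0.042, and 0.26 and -0.15. *Kif20a* and *Ube2c* of the mitotic set were higher and then lower, at 0.083 and -0.15, and 0.13 and -0.19. *Bub1*, *Mki67* and *Cenpe* were lower and then higher, at -0.44 and 0.12, -0.29 and 0.31, and -0.30 and 0.14. By the LMPP labels none of the 48 genes showed such a pattern, beside 2.34% of the genes tested in both tables.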

How the results depend on the processing

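The medians of both sets kept their sign in IdHPCs and in LMPPs by *Pcgf1* reads, except for the S phase median of IdHPCs. That median lay between -0.084 and 0.27 with 1 library left out. Without the row at the 3' end it was -0.0035, beside -0.071 over all genes. CPM without that row was still scaled to the total of all rows, so that this change of sign is shared with all genes. The mitotic median of IdHPCs lay between -0.15 and -0.079 with 1 library left out (-0.079 without KO 2) and was -0.20 without the row at the 3' end, where that of all genes was -0.071. No member was called in IdHPCs or by LMPP label under any alternative. The LMPP labels each mix libraries with and without *Pcgf1* reads, so that their lack of calls decides little. The number of genes called in IdHPCs, 65 by limma, was 0 with no filter (1996 at an unadjusted p under 0.05), 181 with median ratio scaling (119 higher and 62 lower), 610 by edgeR's exactTest (451 and 159), 124 by its quasi-likelihood test (77 and 47), 497 by DESeq2 (344 and 153), 3 without the row at the 3' end and between 14 (without control 2) and 825 (without KO 1) with 1 library left out. By LMPP label, the S phase median ranged, with 1 library left out, from -0.059 (labelled control 2 omitted) to 0.074 (labelled control 1 omitted) and the mitotic median between -0.052 and 0.035. By *Pcgf1* reads, the S phase median was -0.096 with median ratio scaling, -0.10 by both edgeR tests and between -0.13 and -0.077 with 1 library left out, the mitotic median lay between -0.067 and -0.046, and the number of genes called, 2089 by limma, was 1175 without the row at the 3' end and between 1291 (without the library labelled control 2) and 1947. *Tk1* in LMPPs by reads turned to 0.025 without the library labelled control 1, and its lowest value with 1 library left out was -0.26. Where no value above shows otherwise, the cause was not tested.

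In IdHPCs, replicates share only a number. In LMPPs the number is also the split by *Pcgf1* reads, which both libraries numbered 1 have and both numbered 2 lack. Deviations of replicate 1 from the group means correlated at 0.15 in IdHPCs and 0.71 in LMPPs, over 2 pairs each. The value in LMPPs cannot be told apart from that split. The replicate block gave 669 calls in IdHPCs and 3 by LMPP label, none of the 48 among them. In LMPPs this block is also a block on *Pcgf1* reads. By *Pcgf1* reads no paired analysis was possible because the groups share no number. With 2 libraries a group, changes under about 0.45 on the log2 scale were not resolved in IdHPCs.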
